A study of Mus musculus with 8 samples.

Results

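The miRNAs described here are those of differentiating C2C12 cells with and without PERK knockdown, 3 days after differentiation was induced. C2C12 is a mouse skeletal myoblast line that fuses into myotubes when serum is withdrawn. The members were all mature miRNAs with at least 1 CPM (counts scaled to a common total of miRNA reads) in at least 1 of the 2 day 3 libraries, and 575 of the 1978 miRNAs listed met this rule. They held 99.99% of the reads in both libraries.

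The study silenced Perk by a stably expressed, lentiviral short hairpin (shPerk) and used a negative control hairpin (shNC). Both are selected cell lines, so a lasting difference between the lines and an effect of the hairpin cannot be told apart. The pair at day 3 was compared with 3 further pairs, each of 1 library a side: the same lines at day 0, before the change of medium, C2C12 cells with an ATF4 vector or an empty vector, and P19 embryonal carcinoma cells with shPerk or shNC, whose day the labels do not give. The paper kept the ATF4 and vector cells in growth medium, so their differentiation was not induced. With 1 library a condition no difference has a replicate check, and Perk itself was not measured by small RNA sequencing.

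PERK is a kinase of the endoplasmic reticulum membrane that senses unfolded protein, phosphorylates eIF2α and thereby slows translation while favouring that of ATF4. A miRNA pairs with target mRNAs mainly through its seed, bases 2 to 8 from the 5′ end, so miRNAs that share a seed share most target sites. In muscle, miR-1, miR-133 and miR-206 are transcribed under MyoD and myogenin and are the best known miRNAs of myotube formation, while miRNAs such as miR-17 and miR-20a accompany proliferation.

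At day 3 the shNC library held 11993448 miRNA reads and the shPerk library 9428246, and at day 0 they held 11321915 and 8800977. Shares of reads are given with counting error of at most 0.033 percentage points on either side (95% Clopper-Pearson). Log2 fold changes are those of shPerk against shNC cells after TMM scaling, which placed the median of all 575 miRNAs at 0.01. A call needed a log2 fold change past 1 in either direction together with an exact binomial test of the reads at an adjusted p of 0.05, a test that compares 2 libraries and not 2 conditions. Scaling to total miRNA counts moved this median to -0.32. Intervals in brackets are 95% intervals from the reads and cover counting error only.

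Of the 575 miRNAs, 240 were called (41.7%), 121 of them higher (21.0%) and 119 lower (20.7%) in PERK knockdown cells. This balance depends on the scaling, since total counts gave 83 higher and 160 lower calls. Of the called miRNAs, 8 of those higher and 16 of those lower had at most 3 reads in 1 library, and no fold change is printed for these. By the filter, 58 of the 575 miRNAs passed through the shNC library alone and 35 through the shPerk library alone. This fixed the direction of their change in CPM. The miRNAs called higher took 9.90% of the reads in shNC cells and 24.2% in shPerk cells, and those called lower took 15.01% and 4.08%. Calls were not limited to rare miRNAs. Among the 81 miRNAs that averaged 1000 CPM or more, 12 were higher and 11 were lower. The 15 most abundant miRNAs held 68.9% of the reads in shNC and 70.6% in shPerk cells. Among the 15 are miR-199a-3p and miR-199b-3p, whose counts are identical, so these shares and the totals count the same reads more than once. Of the 15, 3 were called: miR-26a-5p and miR-24-3p higher, and miR-206-3p lower.

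**Figure D1:**
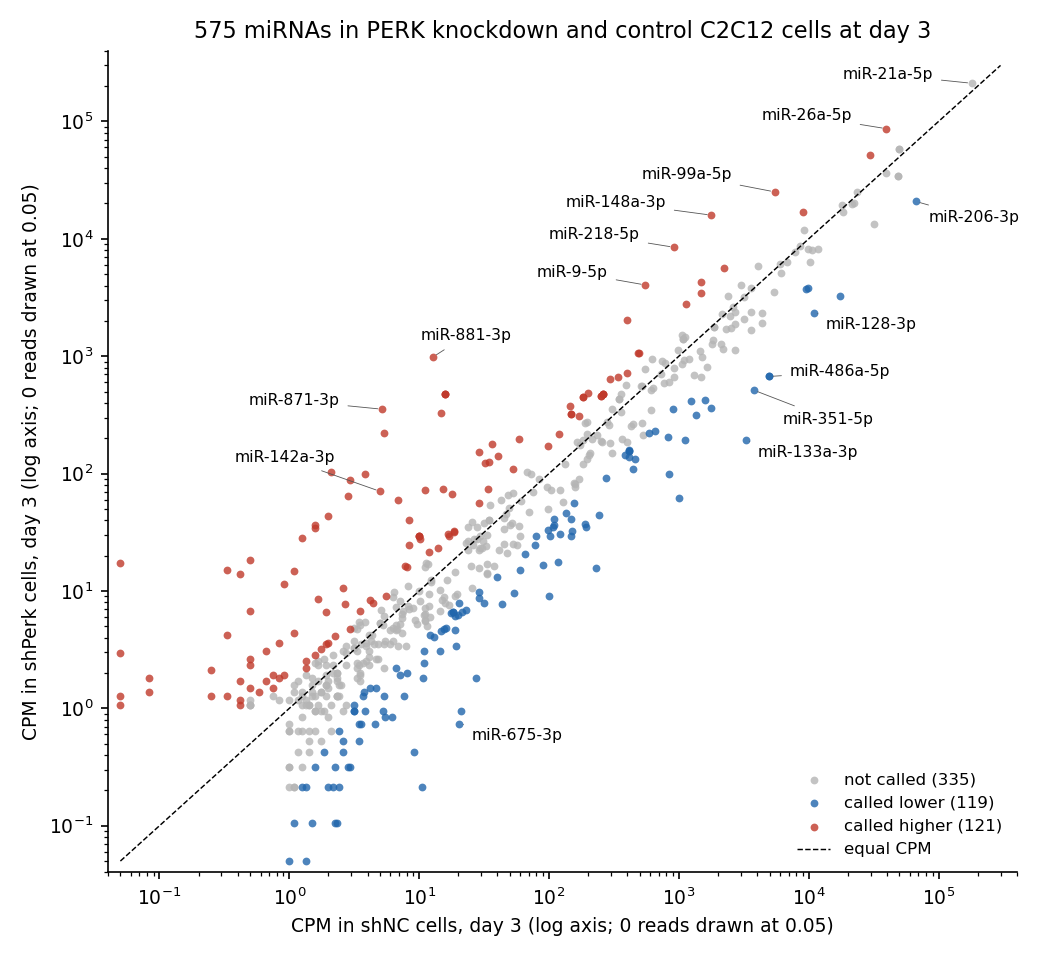
CPM of each of the 575 miRNAs in shNC cells (x axis) and shPerk cells (y axis) at day 3, on log axes, 1 point a miRNA, with 0 reads drawn at 0.05 CPM. The 121 miRNAs called higher and the 119 called lower lie on either side of the line of equal CPM over the whole range of levels, and miR-21a-5p at the top, with 18.01% of the reads of shNC cells, was not called.

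The mature sequences of the miRNAs on which the results turn are shown first, from RefSeq on GRCm38.p6, with the seed in capitals. RefSeq sequences were matched for 468 of the 575 miRNAs, which held 85.8% of the reads of shNC cells and 89.95% of those of shPerk cells. The first set holds muscle miRNAs that were lower.
miR-206-3p: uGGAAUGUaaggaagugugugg
miR-133b-3p: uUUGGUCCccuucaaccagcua
miR-128-3p: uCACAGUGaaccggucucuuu
miR-206-3p (chr1:20679055-20679076) and miR-133b-3p (chr1:20682834-20682855) lie on the plus strand in exons of the lincRNA Gm28653. miR-128-3p is encoded at chr1:128202404-128202424 on the plus strand, in an intron of R3hdm1, and at chr9:112118644-112118664 on the minus strand, in an intron of Arpp21.

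The second set shows that the X-linked miRNAs that were far higher in shPerk cells are neighbours in the genome but do not share a seed. All lie on the minus strand of chromosome X, where GENCODE lists no other gene over them.
miR-743b-3p: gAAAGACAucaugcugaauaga
miR-741-3p: uGAGAGAUgccauucuauguaga
miR-881-3p: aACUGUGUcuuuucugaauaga
miR-871-3p: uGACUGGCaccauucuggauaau
miR-470-5p: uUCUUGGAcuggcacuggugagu
miR-465a-3p: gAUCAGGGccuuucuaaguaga
In this order they lie at chrX:66777266-66777287, chrX:66796809-66796831, chrX:66801954-66801975, chrX:66810438-66810460, chrX:66813995-66814017 and chrX:66839063-66839084.

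The third set holds single miRNAs of high read counts, or marks of other tissues, that were higher in shPerk cells and come from separate loci.
miR-148a-3p: uCAGUGCAcuacagaacuuugu
miR-218-5p: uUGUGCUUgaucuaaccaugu
miR-9-5p: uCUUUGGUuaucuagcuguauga
miR-146b-5p: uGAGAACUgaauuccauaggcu
miR-142a-3p: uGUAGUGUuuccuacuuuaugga
miR-99a-5p: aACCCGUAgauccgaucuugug
miR-26a-5p: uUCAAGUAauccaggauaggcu
miR-24-3p: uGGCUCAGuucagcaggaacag
miR-148a-3p lies at chr6:51269829-51269850 on the minus strand with no other gene annotated over it. miR-218-5p comes from introns of Slit3 (chr11:35616840-35616860) and Slit2 (chr5:48223966-48223986), and miR-26a-5p from an exon of Ctdsp2 (chr10:126995543-126995564) and an intron of Ctdspl (chr9:119031811-119031832), all on the plus strand as their hosts are. miR-146b-5p (chr19:46342790-46342811, plus strand) lies in an intron of Mfsd13a, miR-142a-3p (chr11:87756903-87756925, plus strand) in an intron of the lincRNA Mir142hg, and miR-99a-5p (chr16:77598940-77598961, plus strand) in an intron of Mir99ahg. miR-24-3p is encoded at chr13:63301251-63301272 and chr8:84208875-84208896, both on the plus strand. miR-9-5p is encoded at chr13:83738821-83738843, chr3:88215613-88215635 and chr7:79505279-79505301, each on the plus strand within a noncoding host gene.

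The fourth set shows where seeds and directions met. miR-322-5p, miR-16-5p and miR-195a-5p share 1 seed but were lower, not called and higher in this order, while miR-17-5p and miR-20a-5p share another and were both lower. miR-503-5p is the neighbour of miR-322-5p, and the last lines are the miRNAs of the Clcn5 introns, all lower.
miR-322-5p: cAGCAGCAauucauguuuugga
miR-16-5p: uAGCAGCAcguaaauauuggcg
miR-195a-5p: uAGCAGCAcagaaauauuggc
miR-503-5p: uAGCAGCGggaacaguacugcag
miR-17-5p: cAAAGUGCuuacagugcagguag
miR-20a-5p: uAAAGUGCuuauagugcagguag
miR-501-3p: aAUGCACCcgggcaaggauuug
miR-501-5p: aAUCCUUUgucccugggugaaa
miR-362-5p: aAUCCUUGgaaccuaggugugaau
miR-322-5p (chrX:53054306-53054327) and miR-503-5p (chrX:53054027-53054049) lie on the minus strand. miR-195a-5p lies at chr11:70235062-70235082 on the plus strand, and miR-16-5p has copies in an exon of Dleu2 (chr14:61631936-61631957, minus strand) and an intron of Smc4 (chr3:69009918-69009939, plus strand). miR-17-5p (chr14:115043684-115043706) and miR-20a-5p (chr14:115044183-115044205) lie in an exon of Mir17hg on the plus strand. miR-501-3p (chrX:7241270-7241291), miR-501-5p (chrX:7241307-7241328) and miR-362-5p (chrX:7242019-7242042) lie on the minus strand, within introns of the chloride channel gene Clcn5.

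The muscle miRNAs were lower in PERK knockdown cells, 7 of 8 at day 3 and 6 of 7 at day 0, yet they also increased from day 0 to day 3 in those cells. Summed over both arms, miR-206, miR-133b, miR-133a and miR-1a took 1.92% of the reads of shNC cells at day 0 and 8.88% at day 3, and 0.385% and 2.43% of those of shPerk cells. Of the 8 arms tested at day 3, 7 were lower and 0 higher, the median being -2.21, or -2.11 with counts of at most 3 set to 3 reads. The study marked these miRNAs on the same libraries, so their direction is no independent evidence. miR-206-3p, the muscle miRNA with the most reads, stood at 18280 CPM in shNC and 3650.5 CPM in shPerk cells at day 0, and at 66926 and 20796 CPM at day 3. The day 3 level in shPerk cells thus lay above the day 0 level of shNC cells and below their day 3 level. Its log2 fold change from day 0 to day 3 was 2.14 in shNC and 2.87 in shPerk cells. miR-1a-3p increased from 219.7 to 17292 CPM in shNC cells and from 119 to 3262 CPM in shPerk cells, log2 fold changes of 6.56 and 5.13. miR-133a-3p, which shares transcripts with miR-1a, went from 419.5 to 3259.8 CPM in shNC cells and from 46.4 to 192 CPM in shPerk cells, and its day 3 level in shPerk cells did not reach the day 0 level of shNC cells. Each of these comparisons between days shares libraries with the comparison of knockdown, so the values are given side by side only.

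Other miRNAs of muscle fell into groups with and without a call. miR-486a-5p and miR-486b-5p, products of the Ank1 locus that are enriched in muscle, had identical counts and their separate levels are uncertain. Each had 59206 reads in shNC against 6332 in shPerk cells at day 3, a log2 fold change of -2.55 [-2.58, -2.51], against 46214 and 7599 reads at day 0. Their log2 fold change between days was 0.54 in shNC and -0.00 in shPerk cells. miR-499-5p, encoded in a slow myosin gene, had 710 and 336 reads at day 3 (log2 fold change -0.40 [-0.59, -0.21]), and 61 and 56 reads at day 0, so it was not called. Its increase between days was 3.72 in shNC and 2.84 in shPerk cells on the log2 scale. miR-208b-3p had 12 reads in shNC against 2 in shPerk cells at day 3 and 0 reads in both lines at day 0. Over the arms of miR-499, miR-208 and miR-486, 4 of the 6 tested were lower and 0 higher. All 4 were arms of miR-486a and miR-486b, so this number counts some reads more than once. The median of the 6 was -1.76, or -1.56 with low counts set to 3 reads.

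All 3 arms of miR-128 were called lower. Of these, 2 passed the filter through the shNC library alone and therefore had to be lower in CPM. miR-128-3p fell from 1.09% of the reads in shNC cells to 0.234% in shPerk cells at day 3, after 6313 and 1791 CPM at day 0, and its log2 fold change at day 3 was -1.88 [-1.90, -1.86]. The main gene of the miR-378 family lies in an intron of Ppargc1b. Of the 5 members of this family, 2 were called lower and 0 higher, beside 20.7% and 21.0% of all 575 miRNAs. miR-378a-3p, the abundant arm, had 379993 and 125598 reads (log2 fold change -0.92 [-0.93, -0.91]) and was not called, though it passed the limit with total-count scaling, at -1.25. miR-378a-5p fell from 5535 to 1267 reads (log2 fold change -1.45). miR-378c stood at -0.28 and was not called.

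**Figure D2:**
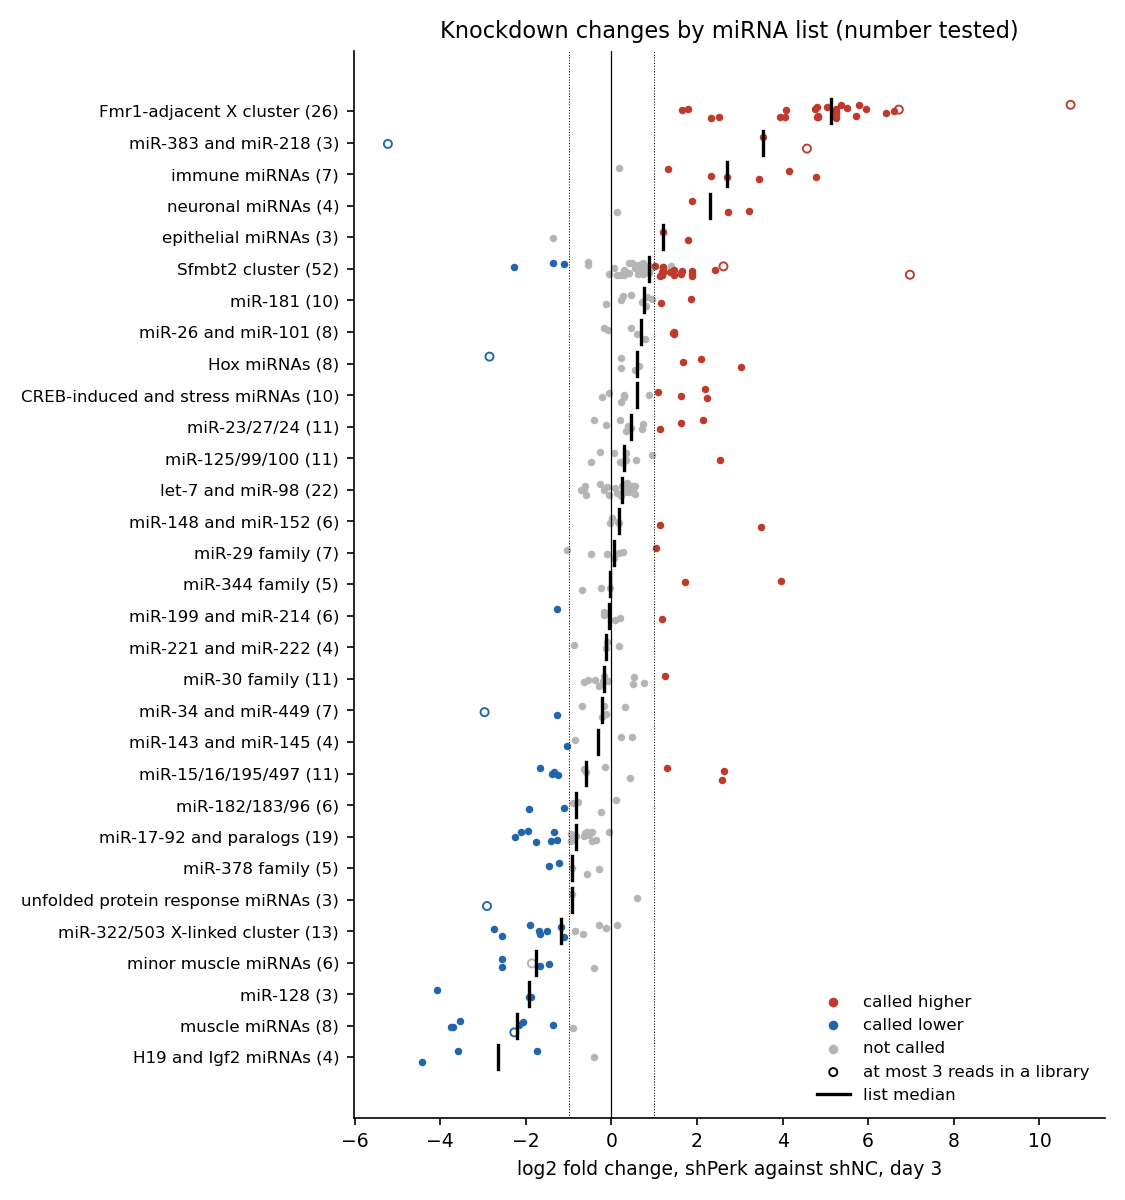
Log2 fold change of shPerk against shNC cells at day 3 for the members of each list with at least 3 miRNAs tested, 1 point a miRNA, with the number tested in brackets, lists ordered by their median (black bar) and the fold limit dotted. Open points have at most 3 reads in a library, where the fitted value depends on the prior count. The imprinted, muscle, miR-128 and miR-322/miR-503 lists lie to the left, let-7 near 0 with no call, and the X-linked cluster near Fmr1 to the right with the 26 miRNAs tested called.

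Of the miRNAs of imprinted growth genes, those of H19 were far lower in shPerk cells. miR-675-5p and miR-675-3p are cut from the noncoding RNA H19, an imprinted transcript of embryonic and regenerating muscle. miR-675-5p had 721 reads in shNC against 20 in shPerk cells at day 0, and 326 and 17 reads at day 3 (log2 fold change -3.57 [-4.38, -2.88]). The shPerk libraries were therefore low on both days. miR-483-3p, from an intron of Igf2, had 64 and 12 reads at day 3 (log2 fold change -1.73 [-2.76, -0.83]). Of the 4 miRNAs of H19 and Igf2, 3 were lower and 0 higher, with a median of -2.65. Of these 4, 2 passed the filter through the shNC library alone and had to be lower in CPM. miR-483-5p, with 19 and 9 reads, was not called at -0.39. miR-335-3p, hosted by the imprinted gene Mest, was higher in shPerk cells at day 0, with 26 and 168 reads, and lower at day 3, with 225 and 44 reads. The other arm, miR-335-5p, was also higher at day 0, with 11 and 53 reads, but was not called at day 3, at -0.00 [-0.40, 0.39] on 143 and 89 reads.

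A cluster of miRNAs on chromosome X that restrains the cell cycle of myoblasts, the miR-322/miR-503 cluster, was lower in shPerk cells at day 3, and by less at day 0, where no miRNA of it was called. At day 3, 8 of its 13 miRNAs were lower and 0 higher, and the median was -1.17. At day 0, where 33.9% of the 602 miRNAs tested were called, 0 of the 12 miRNAs tested passed the fold limit in either direction, although 8 passed the read test, and the median was -0.43. miR-351-5p had 1812 CPM in shNC and 1040 CPM in shPerk cells at day 0, and 3777 and 513 CPM at day 3. The gap between the lines thus widened: between days the log2 fold change was 1.33 in shNC and -0.66 in shPerk cells, and that on knockdown differed by -1.88 [-1.93, -1.82] from day 0. miR-503-5p behaved alike, with 405 and 224 CPM at day 0 and 845 and 99.6 CPM at day 3, and a log2 fold change at day 3 of -2.75 [-2.85, -2.66]. miR-322-5p, which targets cell cycle regulators such as Cdc25a, fell on knockdown from 9937 to 1918 reads (log2 fold change -1.69 [-1.76, -1.62]). miR-450a-5p (18062 and 9218 reads, -0.29) and miR-322-3p (19638 and 7686 reads, -0.67) were not called.

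A second group on chromosome X was lower on both days. It is the group within introns of Clcn5, between positions 7237683 and 7248497, that holds miR-500, miR-501, miR-362, miR-188 and miR-532. All 9 of its miRNAs with a RefSeq position were called lower at day 3 and at day 0, with medians of -2.11 and -2.16. miR-532-5p, the most abundant of the group, was also called, with 118438 and 35839 reads (log2 fold change -1.04 [-1.06, -1.03]), and its fall had been larger at day 0, at -1.86 on 140777 and 27509 reads. miR-501-5p had 1730 and 138 reads at day 0 and 1200 and 85 reads at day 3 (log2 fold change -3.14 [-3.47, -2.82]). miR-501-3p, from the same hairpin, stood at -1.59 [-1.64, -1.54]. Between days the log2 fold change of miR-501-3p was 0.10 in shNC and 0.28 in shPerk cells.

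The proliferation-associated miRNAs of the miR-17-92 cluster and its paralogs tended to be lower as well, with a median of -0.84. Of the 19 tested, 7 were called lower, beside 20.7% of all 575 miRNAs, and 0 higher. The arms of the cluster and its paralogs summed to 1.75% of the reads of shNC cells at day 0 and 1.02% at day 3. In shPerk cells they summed to 1.26% and 0.427%. miR-20a-5p had 2672 CPM in shNC and 1286 CPM in shPerk cells at day 0, and 1756 and 363 CPM at day 3 (log2 fold change -1.94 [-1.99, -1.89]). The level was lowest in shPerk cells at day 3, in the library in which the muscle miRNAs had also stayed below their control. miR-17-5p (-1.77) and miR-93-5p (-1.26) were lower too. miR-92a-3p, the most abundant member, was not called at -0.93 [-0.97, -0.90], though it passed the limit with total-count scaling, at -1.27, and miR-25-3p stood at -0.06. The members of this group therefore moved by unequal amounts.

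Among the miR-15, miR-16, miR-195 and miR-497 miRNAs, which restrain the cell cycle, both directions occurred. Of 11 tested, 3 were higher and 4 lower, beside 21.0% and 20.7% of all 575 miRNAs. The seed of miR-322-5p is found in 5 of the 11, among them miR-195a-5p, miR-497a-5p, miR-15a-5p and miR-16-5p. miR-195a-5p had 158 reads in shNC against 877 in shPerk cells at day 0, and 439 and 1692 reads at day 3 (log2 fold change 2.63 [2.47, 2.78]). miR-497a-5p, its neighbour, had 344 and 532 reads at day 3 and a log2 fold change of 1.31 [1.11, 1.51]. miR-15a-5p had 379 and 74 reads (log2 fold change -1.68 [-2.06, -1.31]). miR-16-5p, with 21403 and 11988 reads the most abundant of them, was not called at -0.16. Of the 56 seeds shared by at least 2 tested miRNAs, that of miR-322-5p was the 1 seed with calls in both directions. Summed over the 6 miRNAs tested with this seed, its share of reads went from 0.288% in shNC to 0.181% in shPerk cells.

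**Figure D3:**
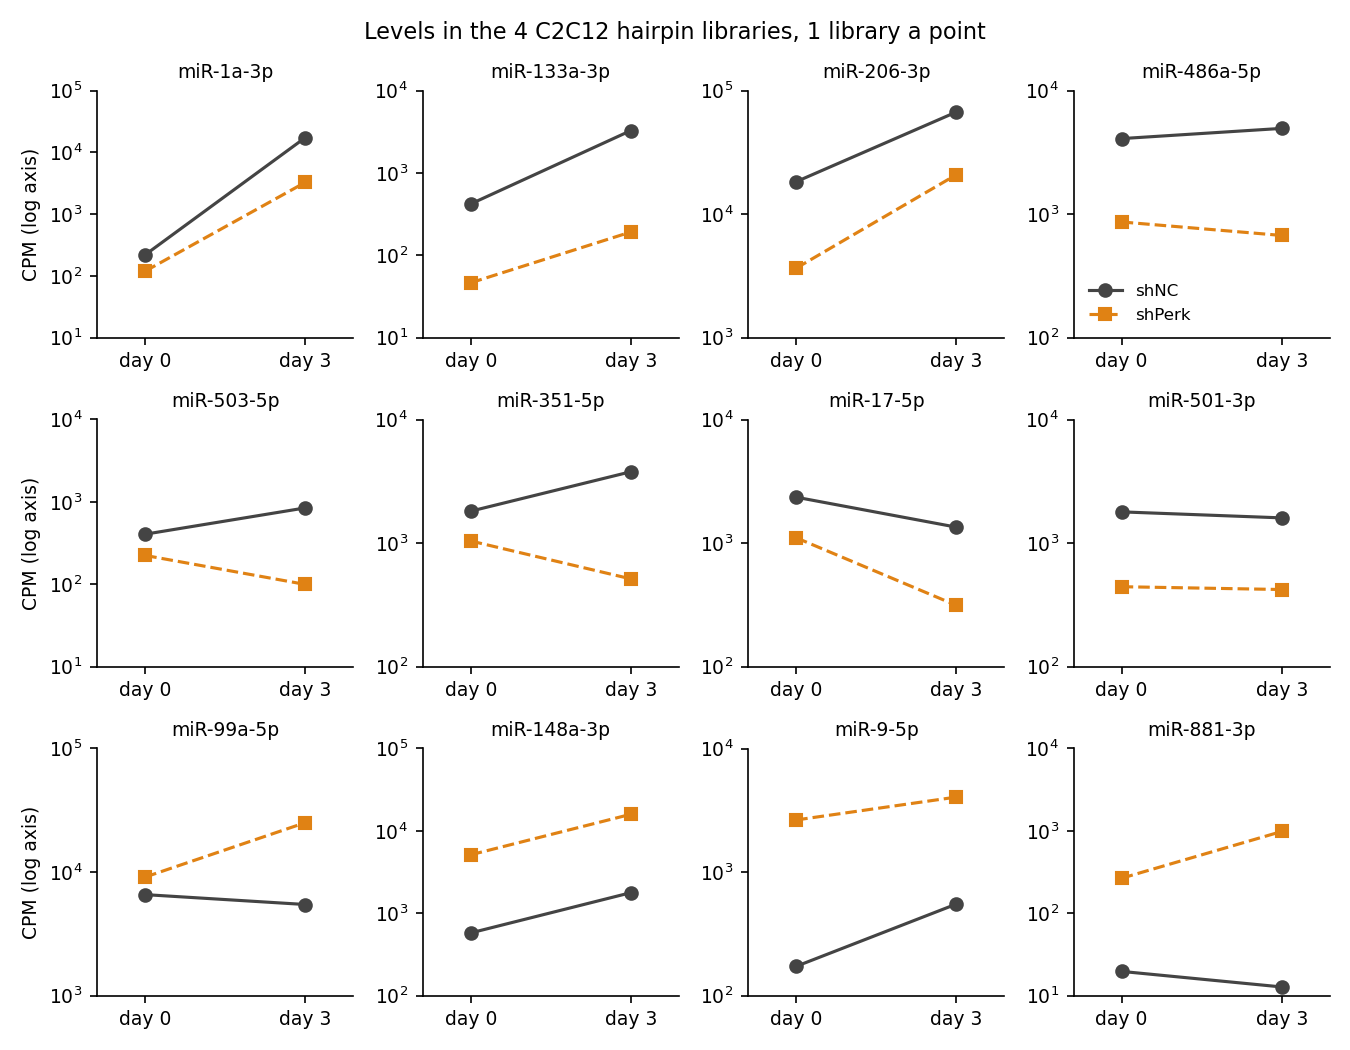
CPM on log axes in the 4 C2C12 hairpin libraries for 12 miRNAs, with shNC cells as circles and shPerk cells as squares at day 0 and day 3, 1 library a point. miR-1a-3p, miR-133a-3p and miR-206-3p increased in both lines from different starting levels, while miR-486a-5p went up in shNC and not in shPerk cells. miR-503-5p and miR-351-5p went up in shNC and down in shPerk cells, and miR-99a-5p and miR-881-3p went up in shPerk and not in shNC cells.

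The largest rises came from the miRNA cluster on chromosome X next to Fmr1, which in mice is expressed mainly in testis. Of its 40 miRNAs listed, 26 passed the filter at day 3, of which 10 did so through the shPerk library alone and therefore had to differ. All 26 were called higher, 2 of them with at most 3 reads in a library, as were the 27 tested at day 0. In sum the cluster took 0.0148% of the reads of shNC cells at day 0 and 0.0117% at day 3, and 0.231% and 0.390% of those of shPerk cells. These sums hold the counts of miR-465a-3p 3 times, since its copies miR-465b-3p and miR-465c-3p have the same sequence and counts. Taken once, the day 3 shares were 0.00851% and 0.294%, over 24 miRNAs. It stayed low in shNC cells and became more abundant with time in shPerk cells. miR-881-3p had 223, 153, 2345 and 9275 reads in shNC cells at day 0 and day 3 and shPerk cells at day 0 and day 3. Its log2 fold change on knockdown was 3.89 at day 0 and 6.60 at day 3, a difference of 2.71 [2.41, 3.01]. miR-871-3p differed between days by 2.33 [1.87, 2.78]. miR-470-5p, with 58, 46, 783 and 939 reads in the same order, differed between days by 0.78 [0.20, 1.35]. Even at day 3 the whole cluster stayed below miR-218-5p alone in its share of reads.

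Single miRNAs from several other loci were also far higher. miR-148a-3p, which targets DNA methyltransferase mRNA and accompanies differentiation of several tissues, stood at 577 CPM in shNC and 5127 CPM in shPerk cells at day 0, and at 1778 and 15897 CPM at day 3. Its log2 fold change between days was 1.89 in shNC and 1.99 in shPerk cells, and that on knockdown was 3.28 at day 0 and 3.49 at day 3. miR-148b-3p, with the same seed, was not called at 0.02. miR-218-5p, which is best known from motor neurons, had 2498 and 25625 reads at day 0 and 10996 and 79858 reads at day 3 (log2 fold change 3.54 [3.51, 3.57]). miR-99a-5p had 6571 and 9120 CPM at day 0, where it was not called, and 5466 and 25112 CPM at day 3 (log2 fold change 2.53 [2.52, 2.55]). The fold changes on knockdown differed between days by 1.93 [1.91, 1.95]. miR-100-5p, with the same seed, stood at 0.35, miR-125b-5p at 0.21 and let-7c-5p at 0.56, none of them called.

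Several markers of other cell types were higher in shPerk cells. Of 7 immune miRNAs tested, 6 were higher and 0 lower, and their median was 2.70. Of these 7, the arms of miR-142a mark blood cells, and the other 5 are arms of miR-146a, miR-146b and miR-155, which many cell types express. miR-142a-3p, a marker of haematopoietic cells, had 28 reads in shNC against 1977 in shPerk cells at day 0, and 60 and 665 reads at day 3 (log2 fold change 4.15 [3.77, 4.56]). Its 5p arm had 24 and 414 reads at day 3. Of other blood markers, miR-223-3p had 0 and 1 reads and miR-150-5p 11 and 0 reads at day 3. The erythroid miR-451a had 32 and 73 reads and was called higher, at 1.86, while the erythroid miR-144-3p had 3 and 3 reads. miR-146b-5p, an NF-kappaB-induced miRNA, was the most abundant of the list, with 4755 and 19291 reads (log2 fold change 2.70 [2.65, 2.75]). miR-155-5p was not called at 0.18 [0.10, 0.25].

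Of 4 neuronal miRNAs tested, 3 were higher, beside 21.0% of all 575 miRNAs. miR-9-5p had 1956 and 23241 reads at day 0 and 6604 and 38128 reads at day 3, and its log2 fold change was 4.07 at day 0 and 3.21 at day 3. miR-124-3p, the defining miRNA of neurons, had 0 reads in all 4 libraries, and miR-137-3p had 1 and 2 reads at day 3. miR-153-3p had 100 and 231 reads. The summed share of the list was 0.0592% in shNC and 0.422% in shPerk cells at day 3, of which 0.404% was miR-9-5p in shPerk cells. The miRNAs of epithelium, miR-200a-3p, miR-200b-3p, miR-200c-3p, miR-141-3p and miR-429-3p, had between 0 and 25 reads in each library at day 3, and 2 of 3 tested on that list were higher, miR-203-3p with 27 and 39 reads and miR-205-5p with 5 and 11 reads, neither of them called with total-count scaling. Liver miR-122-5p had 49 and 26 reads, and endothelial miR-126a-3p 1004 and 848 reads, neither called. Of 28 embryonic stem cell miRNAs (miR-290 to miR-295 and miR-302), 0 reached 1 CPM at day 3. Whether cells of another type took part in these values was not tested.

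Several abundant miRNAs that cells of most tissues express were higher by smaller factors. miR-26a-5p, which targets Ezh2 and promotes muscle differentiation, took 3.96% of the reads in shNC and 8.67% in shPerk cells at day 3, a log2 fold change of 1.46 [1.46, 1.47], after 34271 and 58730.4 CPM at day 0. Together with miR-101, another miRNA that targets Ezh2, 3 of 8 miRNAs were higher and 0 lower, with a median of 0.70. Besides miR-26a-5p these were miR-101a-3p and miR-101c. Their counts at day 3 were almost equal, 5859 and 5901 reads in shNC cells, so their separate levels are uncertain. Of the miR-23, miR-27 and miR-24 clusters 3 of 11 were higher, all of them arms of miR-24, and miR-24-3p took 2.96% and 5.14% of the reads. With total-count scaling miR-24-3p was no longer past the fold limit, at 0.80. miR-27b-3p, the most abundant of the others, stood at 0.20. Of the miR-181 family, which rises early in myoblast differentiation and targets Hoxa11, 2 of 10 were higher, with a median of 0.76. miR-181a-5p had 7373 and 16171 reads at day 0 and 17784 and 40599 reads at day 3 (log2 fold change 1.87 [1.85, 1.90]). Of the miR-30 family, 1 of 11 was higher, miR-30d-5p with 107698 and 160474 reads (log2 fold change 1.26, or 0.92 with total-count scaling). Over all 575 miRNAs, 21.0% were called higher, so the counts of these small families are given as description only.

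In several other families, some of them abundant, few or no miRNAs were called at day 3. Of 22 let-7 and miR-98 miRNAs tested 0 were called in either direction, although 18 passed the read test, with values between -0.72 and 0.56 and a median of 0.24 that turned to -0.09 with total-count scaling. let-7c-5p and let-7f-5p had almost equal counts at day 3, 595368 and 595256 reads in shNC cells, so their separate levels are uncertain. miR-21a-5p took 18.01% and 21.1% of the reads (log2 fold change 0.56). miR-199a-3p and miR-199b-3p, identical in sequence and counts, had 587585 and 324264 reads, a value of -0.18. miR-143-3p stood at 0.22. Of the miR-29 family, repressors of collagen mRNA, 1 of 7 was called, miR-29c-5p with 35 and 45 reads. miR-221 and miR-222, which target the cell cycle inhibitor p27, had 0 of 4 called at day 3 and 3 of 4 called higher at day 0. miR-222-3p had 25967 and 51889 reads at day 0 and 27884 and 16133 reads at day 3.

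The miRNAs of an intron of Sfmbt2, a large rodent cluster, were more often higher than lower. Of 52 tested, 21 were higher and 3 lower, with a median of 0.87 that remained positive, at 0.54, with total-count scaling. Over all 575 miRNAs, 21.0% were higher and 20.7% lower. Of the 52, 6 passed the filter through the shPerk library alone and 1 through the shNC library alone. The direction of these in CPM was fixed by the filter. miR-467a-5p and miR-467b-5p, with identical counts of 12793 and 13288 reads, were not called at 0.73 [0.70, 0.77]. miR-466b-3p, miR-466c-3p and miR-466p-3p had identical counts of 3129 and 4522 reads (log2 fold change 1.21). Because many of these miRNAs share reads, the number of called members counts some reads more than once.

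Shorter lists gave these results, beside 21.0% higher and 20.7% lower over all 575 miRNAs. miR-132-3p, which CREB induces, had 208 and 270 reads at day 0 and 415 and 1190 reads at day 3 (log2 fold change 2.20 [2.04, 2.36]), and with miR-212, miR-22, miR-31 and miR-210 the list had 4 of 10 higher and 0 lower. The hypoxia-induced miR-210-3p was not among them at -0.06 [-0.14, 0.03]. Of 8 miRNAs of the Hox clusters, 3 were higher and 1 lower. miR-10a-5p had 132 and 678 reads (log2 fold change 3.04 [2.77, 3.32]), whereas miR-196a-5p, with 81751 and 59286 reads, was not called at 0.22. Of the miRNAs tied to the unfolded protein response, miR-708, miR-204 and miR-211, 3 arms passed the filter, 0 were higher and 1 was lower, miR-204-5p. miR-708-5p, which CHOP induces, had 64 and 21 reads, a value of -0.92 [-1.71, -0.20], and miR-204-5p had 13 reads and 1 read. Of miR-34, which p53 induces, and miR-449, 2 of 7 were lower at day 3, among them miR-34a-5p with 3313 and 864 reads (log2 fold change -1.26). At day 0 the other 6 of 7 had been higher, while miR-34a-5p was not called at -0.76. Of miR-182, miR-183 and miR-96, 2 of 6 were lower, with miR-182-5p at -0.25. miR-344d-3p was 1 of 2 higher among 5 of the miR-344 family, with 1736 and 3550 reads. Of miR-143 and miR-145, 1 of 4 was lower, of miR-199 and miR-214 1 of 6 was higher and 1 lower, and of miR-148 and miR-152 2 of 6 were higher. miR-383-5p, with 125 and 2 reads, was the 1 of 3 miRNAs lower on the list it shares with miR-218. The miR-379/410 cluster of the imprinted Dlk1-Dio3 region had 0 of 72 miRNAs at 1 CPM, and miR-127-3p, from the same region, had 11 and 18 reads and was called higher, at 1.38, but not with total-count scaling.

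Reads were also summed over miRNAs that share a seed. Sums were taken over the miRNAs with a RefSeq sequence, and they lack miR-1a and miR-133a among others. Of 49 families with at least 0.1% of the reads in a library, 10 gained and 9 lost more than 2-fold in share. The family of miR-26 gained most, from 4.20% to 8.999% of all reads, and that of miR-21a went from 18.01% to 21.1%. The families of miR-24 (2.96% to 5.14%), miR-99 and miR-100 (1.85% to 3.65%) and let-7 (16.9% to 18.4%) followed. The largest loss was that of miR-206-3p, from 6.69% to 2.08%. The miR-199-3p sequence went from 4.90% to 3.44%, miR-128-3p from 1.09% to 0.234%, the seed of miR-30a-5p, miR-30c-5p and miR-30e-5p from 2.47% to 1.64% and miR-7 from 0.956% to 0.374%. The miR-30 sum lacks miR-30d-5p, which shares that seed but had no RefSeq sequence here, and whose share went from 0.898% to 1.70%. Over all arms of the miR-30 family the share went from 3.54% to 3.48%, so this loss rests on which members had a sequence. The miR-17 and miR-20 seed shrank from 0.452% to 0.118% of the reads.

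**Figure D4:**
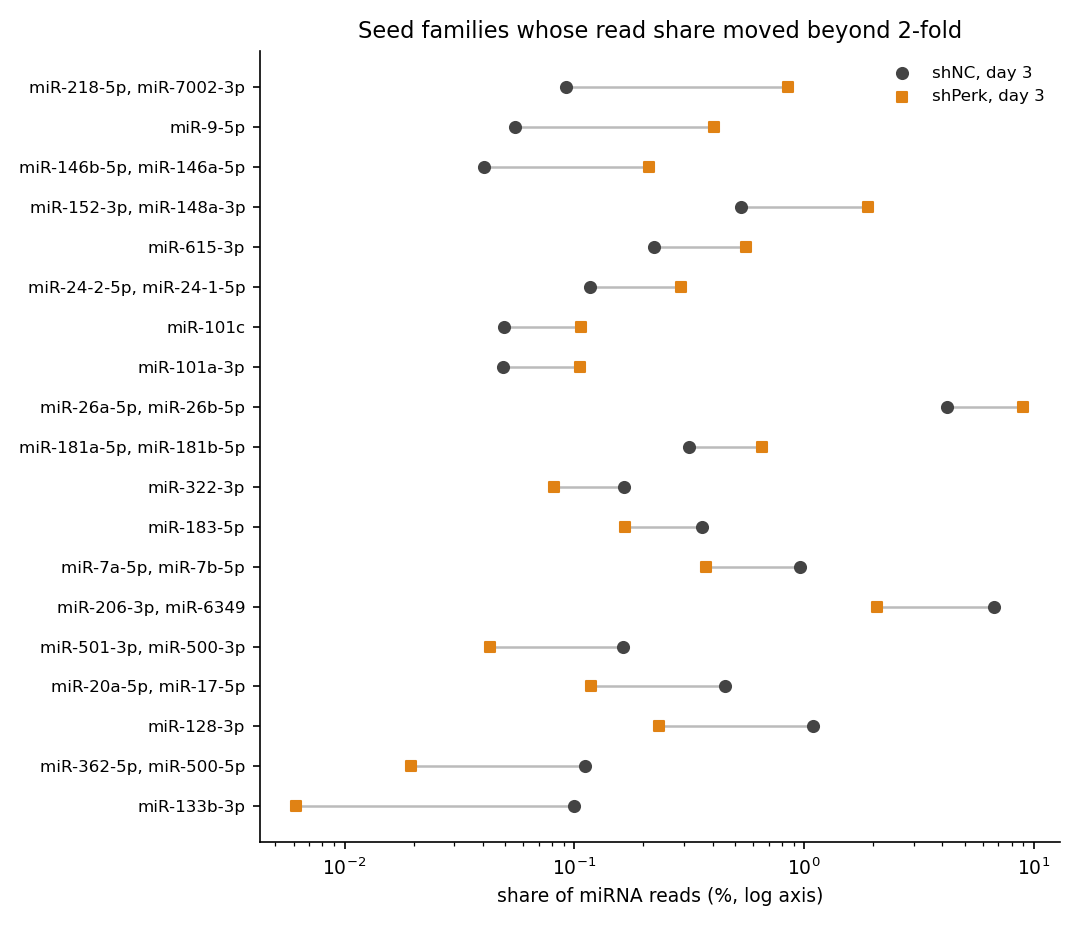
Share of all miRNA reads at day 3 (log axis, in percent) of the seed families whose share changed more than 2-fold and reached 0.1% in a library, labelled by their first members, with shNC cells as circles and shPerk cells as squares. The family of miR-26 rose to 8.999% of the reads, while miR-206-3p fell from 6.69% to 2.08%.

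Neighbouring miRNAs were compared by position where RefSeq gives one. RefSeq hairpins within 10000 bases of each other on a strand formed 29 clusters with at least 4 miRNAs tested, a grouping made after the data were seen. Calls went in 1 direction in 21 clusters, 8 had no call and 0 had calls in both directions. The Sfmbt2 cluster, with its 21 higher and 3 lower calls, is not among the 29. In 2 clusters, both on chromosome X, every member tested was called: the 24 miRNAs between 66776757 and 66839125, of which 9 passed the filter through the shPerk library alone and had to be higher, and the 9 miRNAs of the Clcn5 introns, all lower. The cluster of miR-212 and miR-132 on chromosome 11 had 3 of 4 members higher and that of miR-296 and miR-298 on chromosome 2 had 3 of 4 lower. miR-296-5p had 1397 and 168 reads (log2 fold change -2.38 [-2.62, -2.14]). Members of a cluster can be cut from 1 transcript and are not replicates.

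The called arms of a hairpin shared their direction and often differed in size. Both arms were tested for 163 hairpins, and 94 of these had at least 1 arm called. In 23 both arms were higher, in 19 both were lower, in 52 only 1 arm passed and in 0 did the arms pass in opposite directions. Across the 163 pairs, which share a precursor and both libraries, Pearson's r was 0.82 and the median absolute difference was 0.72 on the log2 scale. The difference between arms had an interval that excluded 0 in 104 pairs. Mature arms that more than 1 hairpin encodes entered these counts once for each hairpin, as those of miR-9, miR-199a and miR-3084 did. miR-148a-3p rose by 3.49 and miR-148a-5p by 1.14, with 222 and 306 reads. miR-99a-3p, with 31 and 29 reads, was not called at 0.58 [-0.20, 1.36], and the 5p arm exceeded it by 1.95 [1.22, 2.68]. miR-503-5p (-2.75) and miR-503-3p (-1.10) differed likewise, by -1.65 [-1.78, -1.52].

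At day 0, before the medium was changed, the knockdown pair showed many of the same calls. Of 602 miRNAs tested then, 15.4% were higher and 18.4% lower. The pairs share no library, but they come from the same 2 lines. Across the 526 miRNAs with over 3 reads in all 4 libraries, Pearson's r between the log2 fold changes was 0.77 and Spearman's rho 0.65. Of the miRNAs called higher at day 3, 57 were called higher at day 0, which is 47.1% of the day 3 list and 61.3% of the day 0 list. Of those called lower at day 3, 58 were called lower at day 0, 48.7% and 52.3% of the lists. Calls in opposite directions were made for 6 miRNAs, which are given in the closing section.

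Among miRNAs that averaged 10 CPM or more in both pairs, those whose change differed most between the days belong to several loci. Towards higher values at day 3, the largest difference was that of miR-455-5p, an intronic miRNA of the collagen gene Col27a1. It had 1368 and 458 reads at day 0 and 709 and 1858 reads at day 3, so the higher line switched, and its log2 fold changes differed by 3.15 [2.95, 3.35]. miR-881-3p, miR-1981-5p, miR-871-3p and miR-129-5p followed. miR-129-5p was lower on both days, by less at day 3, with 3774 and 140 reads at day 0 and 646 and 90 reads at day 3. Towards lower values, miR-335-3p differed by -4.85 [-5.61, -4.10]. miR-148a-5p, miR-3963, miR-142a-3p and miR-503-5p came next, and of these miR-503-5p, of the miR-322/miR-503 cluster, differed by -2.03 [-2.15, -1.91].

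**Figure D5:**
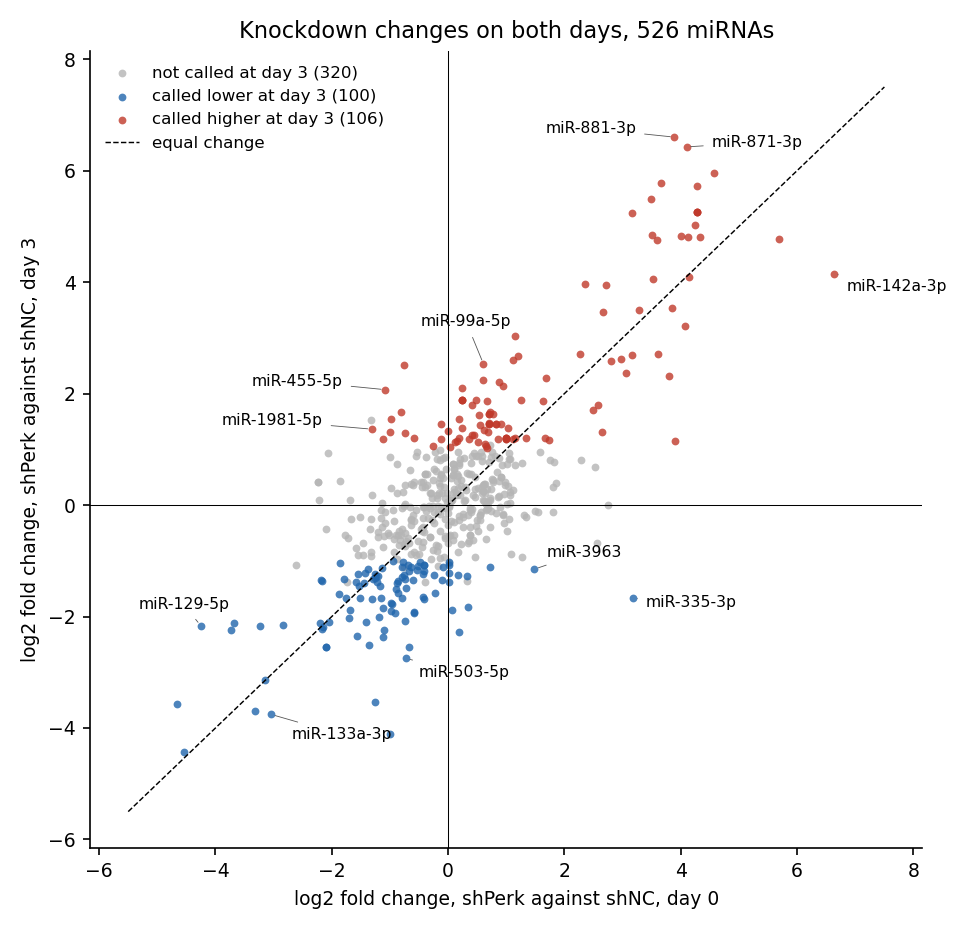
Log2 fold change of shPerk against shNC cells at day 0 (x axis) and day 3 (y axis) for the 526 miRNAs with over 3 reads in each of the 4 libraries, coloured by the call at day 3. Most called miRNAs lie in the lower left and upper right near the line of equal change, and miR-335-3p, miR-455-5p and miR-1981-5p lie to the upper left or lower right.

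In 2 experiments with other libraries the members of the day 3 lists tended in part to the same sign. Values there are RPM (reads scaled as CPM is, by the authors) in which the lowest value above 0 is over 1, and a call rests on the fold limit alone. With ATF4 in C2C12 cells kept in growth medium, unlike the day 3 pair, 14.5% of 605 miRNAs were higher and 8.93% lower. Of the 97 miRNAs higher on PERK knockdown that are listed there, 43 were higher and 5 lower with ATF4, and their median was 0.80. Of the 109 lower on knockdown, 18 were lower and 5 higher, with a median of -0.36, against -0.00 for all. miR-148a-3p went from 580 to 4132 RPM, miR-218-5p from 213 to 1126 RPM and miR-9-5p from 76.0 to 236 RPM with ATF4, as they did on knockdown. The Sfmbt2 cluster had 37 of 47 miRNAs higher with ATF4. Of the muscle miRNAs 2 of 6 were higher and 0 lower with ATF4, and miR-142a-3p was lower, at 7.66 and 2.14 RPM. Across 529 miRNAs Pearson's r was 0.38 and Spearman's rho 0.39, a relation in which members of 1 cluster are not independent points.

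P19 cells, which are not muscle cells, carried an shPerk hairpin too. There 17.7% of 696 miRNAs were higher and 17.7% lower after TMM scaling. The scaling factors were 1.23 for shNC and 0.811 for shPerk P19 cells. Each log2 fold change in P19 cells therefore lies above that of the RPM values themselves, and the counts of calls depend on this. Calls on the unscaled values were not counted. Of 98 miRNAs higher in C2C12 cells at day 3 and listed in P19 cells, 31 were higher and 4 lower. Of 102 lower in C2C12 cells, 12 were lower and 11 higher. The X-linked cluster near Fmr1 accounted for part of the first count, with 14 of 16 listed miRNAs higher in P19 cells. miR-881-3p had 7.96 RPM in shNC and 44.4 RPM in shPerk P19 cells, and miR-148a-3p 19730 and 51302 RPM. miR-9-5p, at 3359 and 1429 RPM, was not called, at -0.63 after this scaling. Muscle miRNAs, lower in C2C12 cells, were higher in P19 cells for 3 of 3 listed, with a median of 1.68, on levels such as 21.2 and 69.6 RPM for miR-1a-3p, and 3 of 5 of the miR-378 family were higher. Across 483 miRNAs Pearson's r was 0.28 and Spearman's rho 0.25.

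The called groups differed somewhat in sequence composition, which the comparison did not use. Over the miRNAs with a RefSeq sequence, the 94 higher ones had a median GC content of 45.5%, the 95 lower ones 50% and the 279 not called 50%. A first base of U was found in 54.3% of the higher, 29.5% of the lower and 41.6% of the remaining miRNAs. Without the X-linked cluster near Fmr1 and the Sfmbt2 cluster, 67 higher miRNAs were left, with 47.6% GC and U first in 49.3%. The median length was 22 bases in each group. These are descriptions over members that share clusters and families, and no test was made.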

How the data were processed

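Small RNA libraries of mouse C2C12 and P19 cells were made by linker ligation, reverse transcription, PCR and gel selection, and the authors annotated the reads with bowtie, whose version is not given in the sources used here. The submitters' processing notes name mm10 and GRCm38, and neither the miRNA release nor the treatment of multiply matching reads is given. Counts are the authors' deposited raw reads per mature miRNA for the 4 C2C12 hairpin libraries. The ATF4 and P19 tables hold RPM values deposited by the authors. Deposited columns of log2 fold changes, p-values and q-values from the authors' own comparisons were not used.

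Samples were grouped by their titles, with 1 library in each of 8 groups. miRNAs with at least 1 CPM in 1 library of a pair were kept, libraries were scaled by TMM (edgeR 4.0.16 in R 4.3.3), and log2 fold changes were computed with a prior count of 0.125. Quasi-likelihood tests need replicates, so calls rested on a log2 fold change past 1 together with an exact binomial test of the reads at a Benjamini-Hochberg adjusted p of 0.05. This test covers counting error only, and PCR copies were not marked by molecular identifiers. Intervals are 95% Clopper-Pearson intervals of the reads, and counts of at most 3 reads were treated as a floor. For RPM, which was assumed to be counts when the tests were planned, TMM factors were taken from the values, 0 was set to 1 RPM and the fold limit was used alone. The scripts were tested on simulated data. Seeds, positions and gene models came from RefSeq and GENCODE vM21 for GRCm38.p6. Tables and plots were made with Python 3.11.15, pandas 2.3.3, numpy 2.4.6, scipy 1.17.1 and matplotlib 3.10.9.

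The miRNAs named were the 10 largest called changes in each direction at 10 CPM or more on average and over 3 reads in both libraries, the 15 most abundant, up to 4 of the most abundant members of each of 39 lists, the seed families with the largest gains and losses, and the 5 largest differences from day 0 in each direction. Further miRNAs, among them minor arms, low markers and members of the Clcn5 introns, were added after their values were seen. The members and lists were chosen with earlier results of these data known. Alternatives were total-count, upper-quartile and DESeq2 1.42.0 scaling, other filters, a prior count of 2, the fold limit alone or at 2, edgeR's exact test with the coefficient of variation set to 0.1, 0.2 or 0.4, and identical counts collapsed to 1.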

Additional observations from a re-analysis of the deposited data

Results flagged for a closer look

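In 6 miRNAs the day 3 call had the opposite direction to the call at day 0. The difference between days was not tested, since each day has 1 library a line. miR-455-5p was higher at day 3, at 2.07 on the log2 scale after -1.08 at day 0. miR-1981-5p stood at 1.36 after -1.31, with 1542 and 440 reads in shNC and shPerk cells at day 0 and 638 and 1023 reads at day 3. miR-704 stood at 1.18 after -1.11, on few reads, 46 and 15 at day 0 and 24 and 34 at day 3. miR-335-3p was lower at day 3, at -1.67 after 3.18. Its other arm, miR-335-5p, was higher at day 0, at 2.75, and not called at day 3, at -0.00. miR-3963 stood at -1.15 after 1.48, with 631 and 1250 reads at day 0 and 1881 and 529 reads at day 3. miR-449c-5p had 25 and 52 reads at day 0 and 26 and 2 reads at day 3, and its fitted value of -2.96 depends on the prior count and is no estimate of size.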

How the results depend on the processing

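No value of a named miRNA or list that had been called changed its direction under any alternative run. The median of all miRNAs moved to -0.32 with total-count scaling, to -0.10 with upper-quartile scaling and to -0.18 without the filter, and total counts gave 83 higher and 160 lower calls in place of 121 and 119. With the filter at 10 CPM, 79 miRNAs were called higher, from fewer miRNAs tested. An assumed coefficient of variation of 0.4 left 51 calls, 38 higher and 13 lower, and a log2 fold limit of 2 left 103, 57 higher and 46 lower. Of 144 named miRNAs, total counts kept the side of the limit for 128, with 6 lost and 10 gained, and the variation of 0.4 lost 35. Uncalled list medians near 0 changed sign, with total counts for let-7 (0.24 to -0.09), miR-29 (0.07 to -0.26), miR-125/99/100 (0.29 to -0.05) and miR-148/152 (0.17 to -0.16), with the upper quartile for miR-29 (-0.04), with collapsed counts for miR-199/214 (-0.05 to 0.06) and with the 10 CPM filter for miR-344 (-0.04 to 0.65). The causes were not tested. No paired analysis was possible because each condition has 1 library. Depth limits only the counting error, not the spread between cultures, which 1 library a condition does not show, and miRNAs with under 10 CPM rest on few reads.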
